A study of Mus musculus with 12 samples.

Results

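The mRNA levels of 9 genes with a part in keratinocyte adhesion are described here. These are the integrin subunits Itga3, Itga5, Itga6, Itgav, Itgb1, Itgb4 and Itgb6 and the laminin-332 chains Lama3 and Lamb3. They were taken by gene symbol from tables of 55487 genes, and all 9 symbols were found. The tables hold mRNA levels of full-thickness wounds on the back of male C57BL/6JNarl mice, excised together with the tissue around them. Wounds of the sham group received 200 µL of Pluronic F127 (P-F127, a gel at 25% in saline) once daily, and CAP-treated wounds received this gel with 10 µM capsaicin (CAP), the pungent compound of chili peppers. Wounds were taken at day 3 or day 6, which gives 4 groups of 3 libraries, and unwounded skin was not analysed here. The sources used here do not say whether libraries came from separate mice, each of which carried more than 1 wound, so n counts libraries and p-values measure the spread between libraries. The comparisons ask whether a gene differed between CAP-treated and sham wounds of a day, and between the days within a treatment.

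Integrins are paired receptors of an alpha and a beta subunit that tie the cytoskeleton to the matrix outside the cell. In resting epidermis, alpha6 beta4 sits in hemidesmosomes and holds basal keratinocytes to laminin-332, a trimer whose alpha and beta chains are encoded by Lama3 and Lamb3, while alpha3 beta1 binds the same laminin outside hemidesmosomes. At a wound edge, keratinocytes are known to take up the fibronectin receptor alpha5 beta1 and the receptor alphav beta6, which also activates latent TGF-beta, and to deposit laminin-332 under the advancing sheet. Fibroblasts, endothelial cells and macrophages also make beta1, alphav and alpha5, so in wound tissue this RNA does not belong to keratinocytes alone.

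Itga5, Itgav and Itgb1 varied together across the libraries, and the 250 bases before the RefSeq start site of each are shown for that reason, 5′ to 3′ on the strand of the gene (RefSeq, GRCm38.p6). Capitals mark a GC box (GGGCGG or its reverse complement CCGCCC) or a TEAD motif (GGAATG or CATTCC). The windows are chr15:103366792-103367041 on the minus strand for Itga5, chr2:83724147-83724396 on the plus strand for Itgav and chr8:128685404-128685653 on the plus strand for Itgb1.
Itga5: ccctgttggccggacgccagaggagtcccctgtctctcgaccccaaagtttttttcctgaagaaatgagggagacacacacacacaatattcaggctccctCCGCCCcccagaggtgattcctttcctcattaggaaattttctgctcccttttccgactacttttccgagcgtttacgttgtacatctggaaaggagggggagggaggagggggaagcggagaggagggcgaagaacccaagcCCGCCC
Itgav: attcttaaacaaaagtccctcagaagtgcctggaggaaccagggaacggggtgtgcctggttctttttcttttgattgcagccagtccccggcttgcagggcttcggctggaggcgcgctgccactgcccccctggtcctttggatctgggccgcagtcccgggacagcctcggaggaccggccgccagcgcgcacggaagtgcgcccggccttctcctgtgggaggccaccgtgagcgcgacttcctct
Itgb1: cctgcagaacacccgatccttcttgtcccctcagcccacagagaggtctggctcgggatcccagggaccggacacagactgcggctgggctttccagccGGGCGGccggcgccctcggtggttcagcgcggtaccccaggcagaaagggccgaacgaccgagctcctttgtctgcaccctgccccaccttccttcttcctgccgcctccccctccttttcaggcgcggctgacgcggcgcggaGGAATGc
The Itga5 window held 2 GC boxes, the Itgb1 window 1 GC box and 1 TEAD motif, and the Itgav window neither. Of all 32851 promoter windows of this length, 32.7% held a GC box and 12.6% a TEAD motif on either strand. The AP-1 motif (TGACTCA or TGAGTCA) and the CArG box of serum response factor, held by 4.46% and 1.47% of windows, were not found in these windows. A match of letters describes the window and says nothing of binding.

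Levels are TPM, the share of the transcripts in a library that belong to a gene, corrected for length, and they carry no read depth, so the depth is unknown and no counting error can be given. Each library had 18533 to 19325 genes at 0.3 TPM or more. Over 19046 genes, libraries of the same group correlated at r = 0.956 to 0.975 and libraries of different groups at 0.934 to 0.975. Epidermal, stromal and immune markers were present in all libraries. CAP replicate 2 of day 6 had the lowest sums of all 12 libraries for the markers of endothelium (70.6 TPM), pericytes and smooth muscle (75.0 TPM), macrophages (762 TPM) and neutrophils (278 TPM). CAP replicate 3 of day 3 had the lowest sum of basal keratinocyte markers among the day 3 libraries and the highest of macrophage markers among all 12 (2339 TPM). Counts of genes called in a list were also made without either library. In bulk tissue, fewer cells of a type and less RNA per cell cannot be told apart.

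All 9 genes passed the filter on low values, which asked for 0.3 TPM or more as the mean of each group compared. Itgb1, the common partner of many alpha chains, had the highest level in the sham group at day 3, 393 ± 63.0 TPM (mean ± SD, n = 3). Itga6 followed at 250.2 ± 14.7 TPM, then Lamb3 at 213 ± 26.5, Itgb4 at 180.0 ± 10.0 and Lama3 at 175 ± 30.98 TPM. From Itga6 to Lama3 the ranges of neighbours overlapped, so these did not differ from the next in line beyond their spread. Itga5 at 83.6 ± 16.9, Itga3 at 65.95 ± 5.69, Itgav at 34.7 ± 5.89 and Itgb6 at 7.79 ± 0.150 TPM came next, each without overlap with its neighbour. The order was the same in CAP-treated wounds at day 3 and in the sham group at day 6. In CAP-treated wounds at day 6, the range of Itgb1 (277 ± 79.3 TPM) overlapped that of Itga6 (201.5 ± 21.0 TPM). There Itgb4 ranked above Lamb3, and Itga5 ranked below Itga3, at 50.8 ± 22.1 against 69.2 ± 11.2 TPM, both with overlapping ranges.

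**Figure D1:**
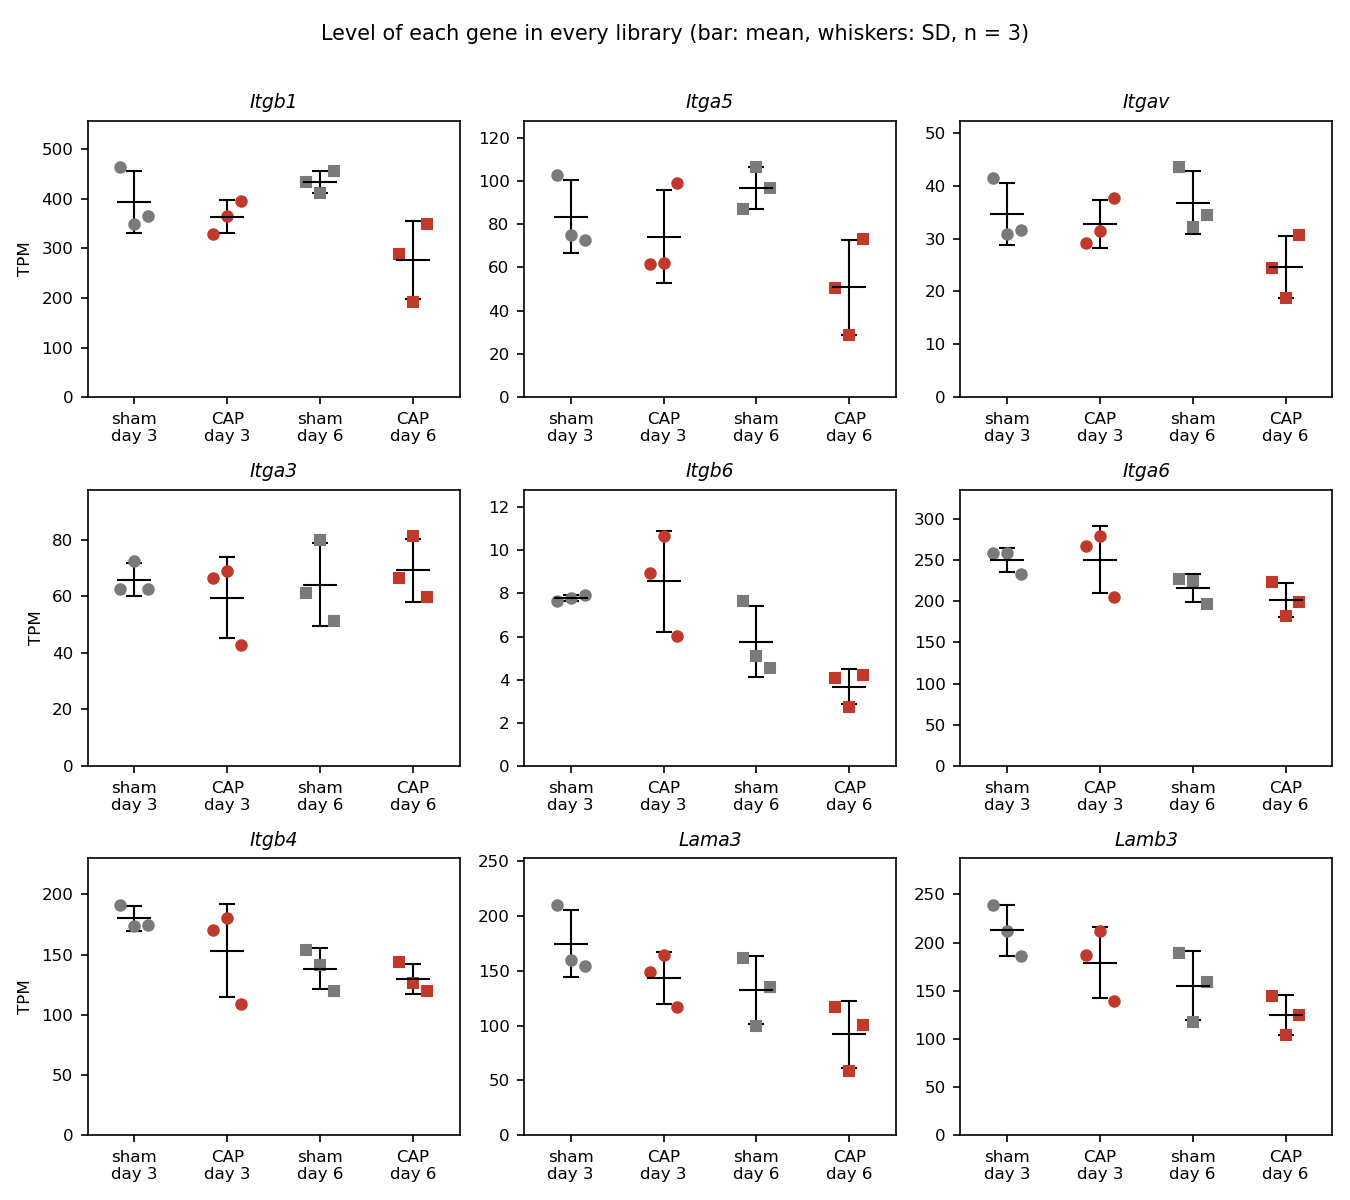
Level of the 9 genes in TPM (linear axis from 0) in each of the 12 libraries, by treatment and day, with the mean and SD of 3 libraries. For Itga5, Itgb1, Itgav and Itgb6 all CAP-treated day 6 libraries lie below all sham day 6 libraries, and for Itga3 these groups overlap.

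At day 3 none of the 9 genes passed the test between CAP-treated and sham wounds. The threshold was an unadjusted p under 0.05 with at least a 2-fold difference, and 0 of 9 passed it in either direction, where 1.16% of all 18330 genes tested passed lower and 0.426% higher. With an unadjusted p under 0.05 alone the count was also 0, against 5.14% of all genes with a lower level, and it was 1 without CAP replicate 3. The log2 differences (CAP minus sham, of TPM + 0.1) lay between -0.29 for Lama3 and 0.10 for Itgb6. They were negative for 8 of 9, against 62.2% of all genes, but for Itga6 the sign turned after median-ratio scaling. Their median was -0.18 beside -0.05 for all genes, and adjusted p-values (limma) ran from 0.839 to 0.996. No gene of the 9 had all CAP-treated libraries below all sham libraries, against 8.75% of all genes.

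At day 6 the integrin subunits Itga5, Itgb1 and Itgav were lower in CAP-treated wounds. Itga5 passed the threshold, 1 of 9 genes against 2.34% of all 18323 genes, and 0 of 9 passed with a higher level, against 1.46%. These 3 genes had an unadjusted p under 0.05 with a lower level, 3 of 9 against 12.5% of all genes. Groups did not overlap, with CAP-treated libraries lower, for these 3 and Itgb6, 4 of 9 against 18% of all genes. The difference was negative for 8 of 9, against 65.7% of all genes, but Itga6 and Itgb4 turned positive after median-ratio scaling. The median of the 9 was -0.555 and that of all genes -0.12. Adjusted p-values (limma) ran from 0.212 to 0.751. Without CAP replicate 2, 0 of the 9 passed the threshold and 2 had an unadjusted p under 0.05. CAP replicate 3 was the CAP-treated library nearest to the sham group for these 3 genes. Leaving out the library nearest to the other group enlarges a difference by construction. Without it the adjusted p was 0.0353 for Itga5, 0.0438 for Itgb1 and 0.0550 for Itgav (limma). In that fit 519 genes higher and 911 lower had an adjusted p under 0.05, against 0 in either direction with all libraries. Without any other single library this was also 0. The adjusted p (limma) was then 0.294 to 0.470 for Itga5, 0.310 to 0.470 for Itgb1 and 0.321 to 0.4745 for Itgav.

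Between day 3 and day 6, Itgb6 fell in CAP-treated wounds. In the sham group 0 of 9 passed the threshold, where 1.61% of all 18368 genes passed lower and 2.13% higher. Itgb4 and Lamb3 had an unadjusted p under 0.05 with a lower level, 2 of 9 against 7.91% of all genes, and 4 did without replicate 1 of day 6 and 1 without replicate 1 or 2 of day 3 or replicate 2 or 3 of day 6. Groups did not overlap for Itga6, Itgb4 and Itgb6, all lower at day 6, 3 of 9 against 10.6%. For Itgb6 they barely failed to overlap (7.647 TPM was the lowest at day 3 and 7.64 TPM the highest at day 6). In the sham group 6 of 9 differences were negative, against 49.3%. In CAP-treated wounds Itgb6 passed the threshold with a lower level, 1 of 9 against 1.52% of all 18202 genes, and 0 passed with a higher level, against 1.27%. Itgb6, Lama3 and Lamb3 had an unadjusted p under 0.05 with a lower level, 3 of 9 against 5.91%. Groups did not overlap for Itgb6 and Lama3, 2 of 9 against 9.63%, and 8 of 9 differences were negative, against 57%. Without CAP replicate 2 of day 6 these counts were 0 past the threshold and 1 with such a p, and without CAP replicate 3 of day 3 they were 1 and 5. With such a p there was 1 gene without CAP replicate 1 or 2 of day 3 and 5 without CAP replicate 3 of day 6.

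Whether the CAP effect differed between the days was tested as an interaction term over all 12 libraries. None of the 9 genes passed the threshold, where 2.73% of all 20267 genes passed with a negative and 2.18% with a positive term. Itgb1 had the smallest adjusted p, with a term of -0.59 on the log2 scale (adjusted p = 0.443, limma). A difference of the CAP effect between the days was thus not shown for any of the 9.

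**Figure D2:**
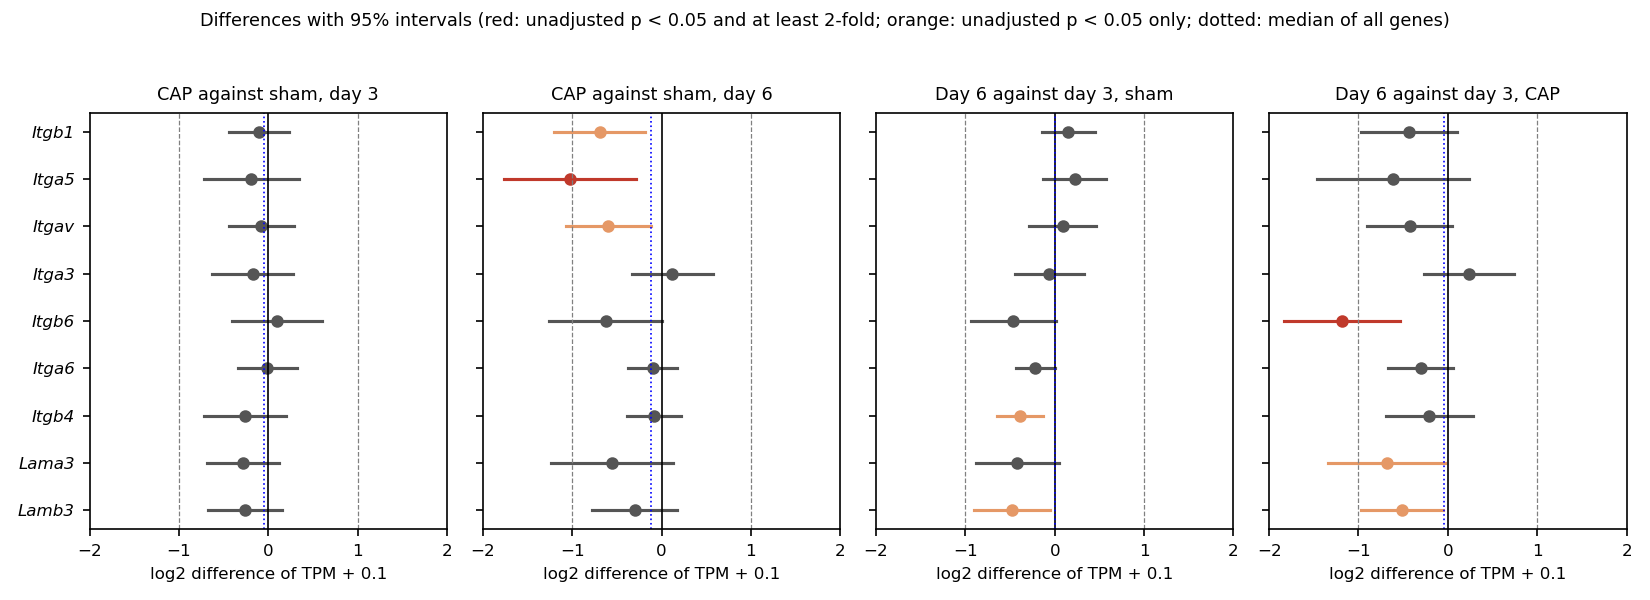
Log2 differences of TPM + 0.1 (points) with 95% intervals (lines) for the 9 genes in each of the comparisons between groups. Itga5 at day 6 (-1.03) and Itgb6 between the days of CAP-treated wounds (-1.185) are past the threshold, and every interval at day 3 includes 0.

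Itga5 (chr15:103344286-103366763, minus strand of GRCm38) encodes the alpha chain of the fibronectin receptor. Its level at day 6 was 87.1, 107 and 96.7 TPM in the sham libraries and 50.4, 28.8 and 73.1 TPM in the CAP-treated ones. The groups did not overlap, and replicate 2 was the lowest of the CAP-treated libraries. Itga5 fell by 1.03 on the log2 scale in CAP-treated wounds (SE 0.31, 95% interval -1.76 to -0.29, adjusted p = 0.212, limma), and relative to the median of all genes the difference was -0.90. The exact permutation test of the 6 values, 2-sided, gave p = 0.1, the smallest that 3 against 3 libraries allow. The 2-fold threshold was missed after median-ratio scaling (-0.91) and quantile normalization (-0.94), without sham replicate 2 (-0.95) and without CAP replicate 2 (-0.67), each time with a lower level in CAP-treated wounds. At day 3 the groups overlapped, with 103, 74.85 and 72.9 TPM in the sham group and 61.6, 62.0 and 99.2 TPM in CAP-treated wounds, a difference of -0.19 (95% interval -0.72 to 0.34).

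Itgb1 (chr8:128685654-128733200, plus strand) encodes the beta chain that pairs with alpha3 and alpha5 among others. It was at 434, 411 and 457 TPM in the sham group at day 6 and at 288, 192 and 349.6 TPM in CAP-treated wounds. Again the groups did not overlap and CAP replicate 2 was the lowest. The difference was -0.69 (SE 0.21, 95% interval -1.20 to -0.185, adjusted p = 0.2155, limma), under 2-fold. At day 3 the level was 465, 349 and 366 TPM in the sham group and 329, 366.5 and 396 TPM in CAP-treated wounds, with overlap and a difference of -0.105 (95% interval -0.44 to 0.23).

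Itgav (chr2:83724397-83806916, plus strand) encodes the alpha chain of vitronectin and fibronectin receptors and the partner of beta6. It was at 43.65, 32.3 and 34.6 TPM in the sham group at day 6 and at 24.5, 18.8 and 30.6 TPM in CAP-treated wounds. The groups came close but did not overlap, and the difference was -0.595 (SE 0.20, 95% interval -1.07 to -0.12, adjusted p = 0.226, limma). At day 3 it was -0.08 (95% interval -0.44 to 0.29). Between the days, Itga5, Itgb1 and Itgav had differences of 0.225, 0.15 and 0.09 in the sham group and of -0.61, -0.43 and -0.43 in CAP-treated wounds, none with an unadjusted p under 0.05.

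Itgb6 (chr2:60598292-60722643, minus strand) encodes an epithelial beta chain known to appear in keratinocytes of healing wounds, and had the lowest level of the 9 genes. At day 3 it was at 7.65, 7.77 and 7.95 TPM in the sham group and 8.96, 10.7 and 6.04 TPM in CAP-treated wounds. At day 6 it was at 7.64, 5.10 and 4.54 TPM in the sham group and 4.06, 2.745 and 4.205 TPM in CAP-treated wounds. The CAP-treated day 6 libraries were the lowest of all 12. Between the days Itgb6 fell by 1.185 on the log2 scale in CAP-treated wounds (SE 0.27, 95% interval -1.83 to -0.54, adjusted p = 0.295, limma), and by 0.99, just short of 2-fold, without CAP replicate 2 of day 6. In the sham group the difference between the days was -0.465 (95% interval -0.94 to 0.01), and at day 6 CAP-treated and sham wounds differed by -0.62 (95% interval -1.25 to 0.01, adjusted p = 0.263, limma). The interaction term was -0.72 (adjusted p = 0.454, limma).

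For the subunits of the hemidesmosome integrin, no difference between treatments had an unadjusted p under 0.05 at day 3 or day 6. Itga6 (chr2:71745616-71858416, plus strand), its alpha chain, was at 259, 259 and 233 TPM in the sham group at day 3 and at 267.5, 279.6 and 204.5 TPM in CAP-treated wounds. At day 6 it was at 227, 224 and 196 TPM in the sham group and at 223.5, 182 and 199 TPM in CAP-treated wounds. The groups overlapped at both days, and the log2 difference was -0.01 at day 3 (95% interval -0.335 to 0.32) and -0.10 at day 6 (95% interval -0.38 to 0.18). Of the 31-base stretches in its transcripts, 6.15% also occur in other genes, mostly Gm29397, so some Itga6 reads may be shared, and for the other 8 genes this share was at most 0.86%.

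Itgb4 (chr11:115974709-116008412, plus strand), the beta chain that anchors keratin filaments through plectin, was at 192, 174 and 175 TPM in the sham group at day 3 and at 154, 141 and 119.8 TPM at day 6. All day 6 libraries were below all day 3 libraries, with a difference of -0.39 (SE 0.11, 95% interval -0.64 to -0.13, adjusted p = 0.138, limma). In CAP-treated wounds it was at 170.5, 180.3 and 109 TPM at day 3 and 144, 126 and 119.9 TPM at day 6. Here the groups overlapped, since replicate 3 of day 3 was the lowest of all 12 libraries, and the difference was -0.21 (95% interval -0.69 to 0.28). Between treatments the difference was -0.26 at day 3 (95% interval -0.72 to 0.19) and -0.08 at day 6 (95% interval -0.39 to 0.22).

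Itga3 (chr11:95044474-95076801, minus strand), the alpha chain of the laminin receptor alpha3 beta1, was the one gene of the 9 with a higher mean in CAP-treated wounds at day 6. It was at 61.1, 80.1 and 51.3 TPM in the sham group and 66.3, 81.5 and 59.7 TPM in CAP-treated wounds, so the groups overlapped almost fully. The difference was 0.12 (95% interval -0.33 to 0.57, adjusted p = 0.751, limma), and its sign turned without sham replicate 3 (-0.03) or without CAP replicate 2 (-0.004). At day 3 it was -0.18 (95% interval -0.63 to 0.27).

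The laminin-332 chains had their highest means in the sham group at day 3 and their lowest in CAP-treated wounds at day 6. Lama3 (chr18:12333819-12583013, plus strand) encodes the alpha chain, to which the integrins bind. At day 3 it was at 211, 159.9 and 154 TPM in the sham group and 149, 164 and 117 TPM in CAP-treated wounds. At day 6 it was at 162, 99.8 and 135 TPM in the sham group and 117, 58.2 and 101 TPM in CAP-treated wounds. Treatments overlapped at both days, with differences of -0.29 (95% interval -0.69 to 0.12) and -0.555 (95% interval -1.24 to 0.13). Between the days of CAP-treated wounds the groups barely failed to overlap (117.4 TPM was the lowest at day 3 and 117.2 TPM the highest at day 6), with a difference of -0.685 (SE 0.27, 95% interval -1.34 to -0.03, adjusted p = 0.415, limma). It was -0.38 without CAP replicate 2 of day 6.

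Lamb3 (chr1:193207699-193343878, plus strand), the beta chain, was at 239.5, 212 and 186.5 TPM in the sham group at day 3 and 189, 118 and 159 TPM at day 6. In CAP-treated wounds it was at 187, 212 and 139 TPM at day 3 and 145, 104 and 125 TPM at day 6. The difference between the days was -0.47 in the sham group (adjusted p = 0.258, limma) and -0.51 in CAP-treated wounds (adjusted p = 0.391, limma), with overlapping groups in both. The annotation places other genes within Itga5 (Mir6963), Itga6, Lama3 and Lamb3 on the same strand, and how their shared reads were divided was not tested.

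To set the genes against basal keratinocyte RNA, each was divided by the geometric mean of Krt5 and Krt14, the keratin pair of the basal layer. At day 6 this ratio was lower in CAP-treated than in sham wounds without overlap for Itga5, Itga6, Itgb1, Itgb4 and Itgb6, 5 of 9 genes against 29.2% of all genes. The log2 differences of these 5 ran from -0.58 for Itgb4 to -1.52 for Itga5. In the other part of the ratio, Krt5 was higher in CAP-treated wounds at day 6 (log2 difference 0.605, adjusted p = 0.236, limma) and Krt14 differed by 0.38 (95% interval -0.43 to 1.19). At day 3 all 9 ratios overlapped between treatments. When CAP replicate 3 was left out, 4 were lower without overlap. This library had the lowest Krt5 and Krt14 of the day 3 libraries, and no share of all genes was computed for this day. In the sham group the ratio was higher at day 6 than at day 3 without overlap for Itga3, Itga5, Itga6 and Itgb1, 4 of 9 against 66.5% of all genes, beside a Krt14 difference of -0.99. In CAP-treated wounds it was lower at day 6 without overlap for Itgb6 (-1.07), 1 of 9 against 1.17% of all genes. These counts depended on the reference. With Krt5, Krt14, Krt15 and Trp63 together they were 9 at day 6 and 0 between the days of the sham group. Between the days of CAP-treated wounds the count was then 5, and a pseudocount of 1 TPM with Krt5 and Krt14 gave 0. Krt15 itself was higher in CAP-treated wounds at day 6, by 1.21 on the log2 scale against sham and by 1.02 against day 3. It stands in the divisor of every gene, and the share of all genes was not computed for this reference. The day 6 count was 5 without CAP replicate 2, 9 without CAP replicate 3 and 8 without sham replicate 2. The count between the days of CAP-treated wounds was 8 without CAP replicate 3 of day 6. For counts with a library left out, too, the share of all genes was not computed. With 3 against 3 libraries the exact permutation test of a ratio, 2-sided, cannot go below p = 0.1.

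**Figure D3:**
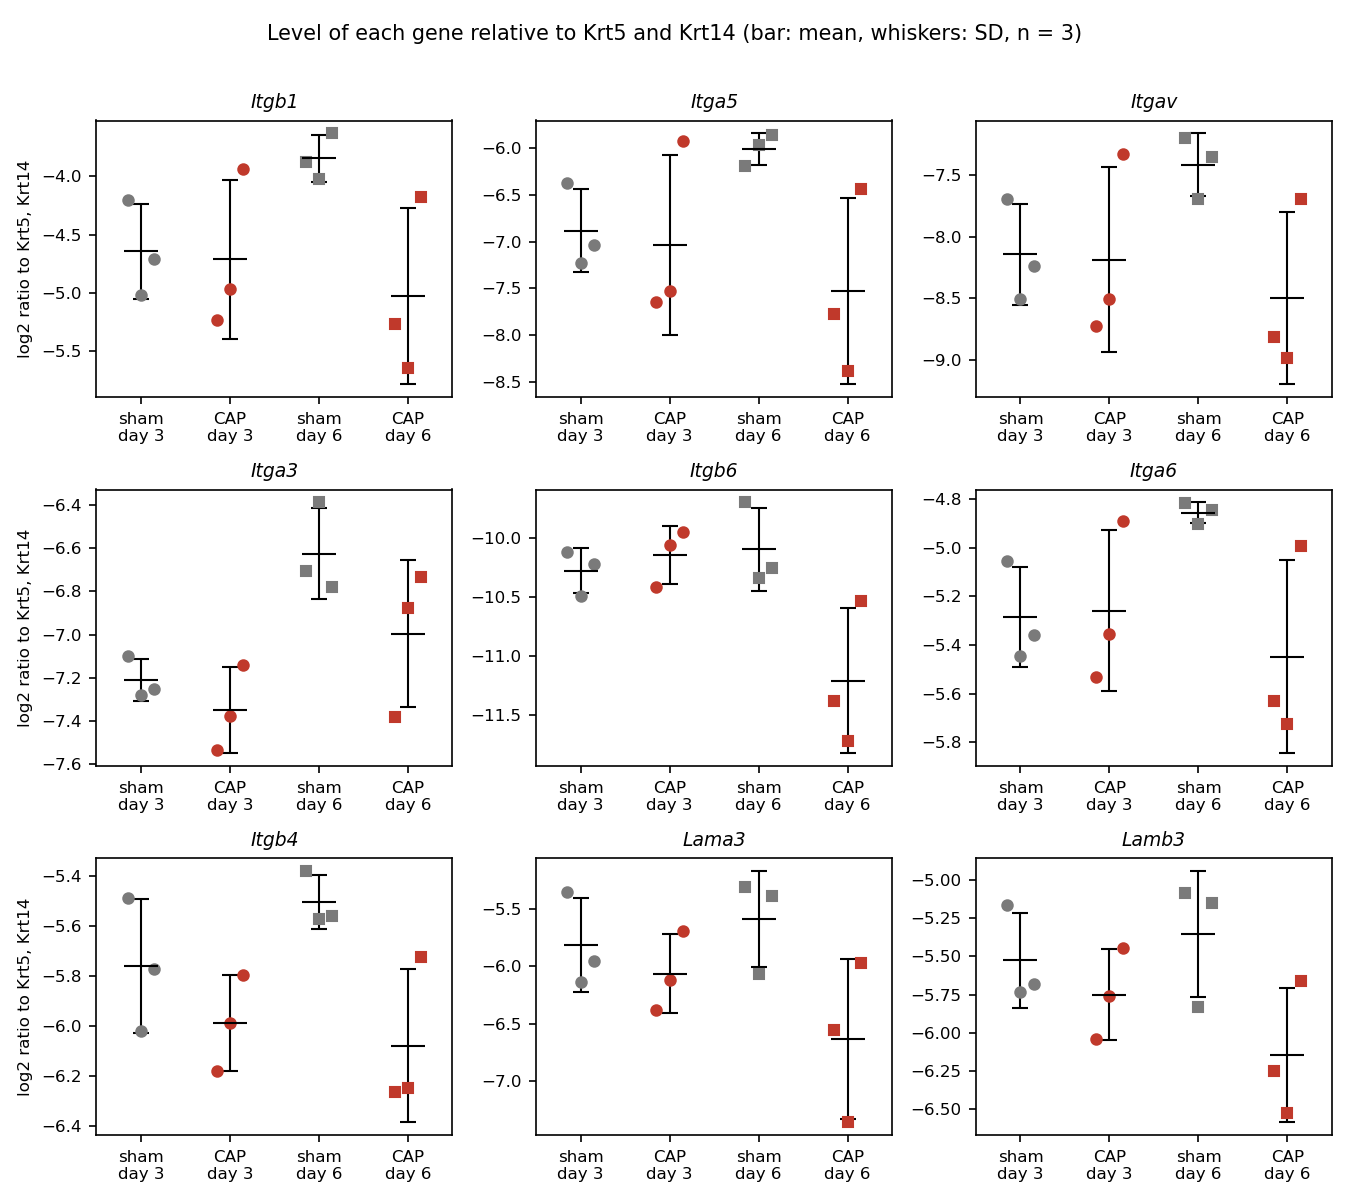
Log2 ratio of each gene to the geometric mean of Krt5 and Krt14 in the 12 libraries, by treatment and day, with the mean and SD of 3 libraries. At day 6 the CAP-treated libraries of Itga5, Itga6, Itgb1, Itgb4 and Itgb6 all lie below the sham libraries.

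Since TPM is per length, the chains of a complex can be set side by side. Of 24 comparisons of such ratios (6 ratios in 4 comparisons of groups), 5 did not overlap, and the 3 described here are among them. With no difference at all, 3 against 3 libraries separate fully, in either direction, at a rate of 0.1. A share over other pairs of genes was not computed, so these 3 are descriptions of the libraries. Itga6 exceeded Itgb4 in every library, with a geometric mean ratio of 1.39 in the sham group and 1.66 in CAP-treated wounds at day 3. These groups did not overlap (log2 difference 0.255, exact permutation p = 0.1), whereas at day 6 the ratios of 1.57 and 1.55 did. Lama3 was below Lamb3 in every library, at a ratio of 0.852 in sham and 0.715 in CAP-treated wounds at day 6, without overlap (log2 difference -0.25, exact permutation p = 0.1). On the log2 scale the CAP-treated libraries stood at -0.30, -0.84 and -0.31, so replicate 2 lay apart. The ratio of Itgav to Itgb6 in the sham group was 4.37 at day 3 and 6.41 at day 6, also without overlap (log2 difference 0.55, exact permutation p = 0.1).

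Across the 12 libraries, sets of the genes varied together. Pearson's r of log2(TPM + 0.1) was 0.96 between Itga5 and Itgb1, 0.94 between Itgav and Itgb1, and 0.90 between Itga5 and Itgav. For Lama3 with Lamb3 it was 0.95, for Itga6 with Itgb4 0.885 and for Itga6 with Itgb6 0.88. Itga3 ran against Itga5, Itgb1 and Itgav, with r of -0.51, -0.51 and -0.56. The 12 points hold 4 groups and differ in tissue makeup, so these values describe the libraries and were not tested.

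Itga5, Itgb1 and Itgav moved with the mean log2 level of macrophage markers (Adgre1, Csf1r, Cd68, Mrc1 and Fcgr1), with r of 0.93, 0.93 and 0.89 over the 12 libraries. They moved against suprabasal keratinocyte markers (Krt1, Krt10, Lor, Ivl and Flg), with r of -0.83, -0.89 and -0.93. Lama3 (-0.79), Itgb6 (-0.74), Lamb3 (-0.65), Itga6 (-0.48) and Itgb4 (-0.35) also had a negative r with these markers, and Itga3 a positive r (0.48). With basal keratinocyte markers, r was -0.77 for Itga5, -0.72 for Itgb1 and -0.70 for Itgav. For the other genes described here it ran from -0.13 (Lama3) to 0.54 (Itga3). At day 6 the macrophage markers summed to 1444 to 1821 TPM in the sham group and 762 to 1552 TPM in CAP-treated wounds, and 2 of 5 had an unadjusted p under 0.05 with a lower level, against 12.5% of all genes. This count was also 2 without CAP replicate 2 and was 1 without sham replicate 1 or 3 and 4 without CAP replicate 3. It was 5 with the replicate block and 1 with no filter. All 5 suprabasal markers passed the threshold with a higher level in CAP-treated wounds at day 6, against 1.46% of all genes, and 4 did without CAP replicate 2. For Flg, filaggrin of the granular layer, the log2 difference was 2.255 (adjusted p = 0.205, limma). Endothelial markers summed to 211 to 281 TPM in sham and 70.6 to 181.5 TPM in CAP-treated wounds at day 6, and pericyte and smooth muscle markers to 323 to 496.5 and 75.0 to 248 TPM. Hair follicle markers (Krt25, Krt27, Krt28, Krt71 and Krt35) summed to 0.170 to 49.6 TPM in sham and 0.03575 to 0.745 TPM in CAP-treated wounds at day 6. The part of the tissue makeup in the lower integrin levels was not tested. Itga6 had an r of 0.83 with the wound-edge keratins Krt6a, Krt6b, Krt16 and Krt17. Itgb4 had an r of 0.73 with these keratins and of 0.73 with skeletal muscle markers (Ckm, Acta1, Myh4, Mylpf and Tnnt3). These values were not particular to 1 cell type. With neutrophil markers (S100a8, S100a9, Csf3r, Cxcr2 and Retnlg), r was 0.71 for Itga6, 0.76 for Itgb6, 0.67 for Itga5, 0.75 for Itgb1 and 0.71 for Itgav. With platelet markers (Pf4, Ppbp and Itga2b) it was 0.69 for Itga6 and 0.81 for Itgb6. The sum of the wound-edge keratins in the sham group was 24250 to 27800 TPM at day 3 and 9497 to 15320 TPM at day 6.

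**Figure D4:**
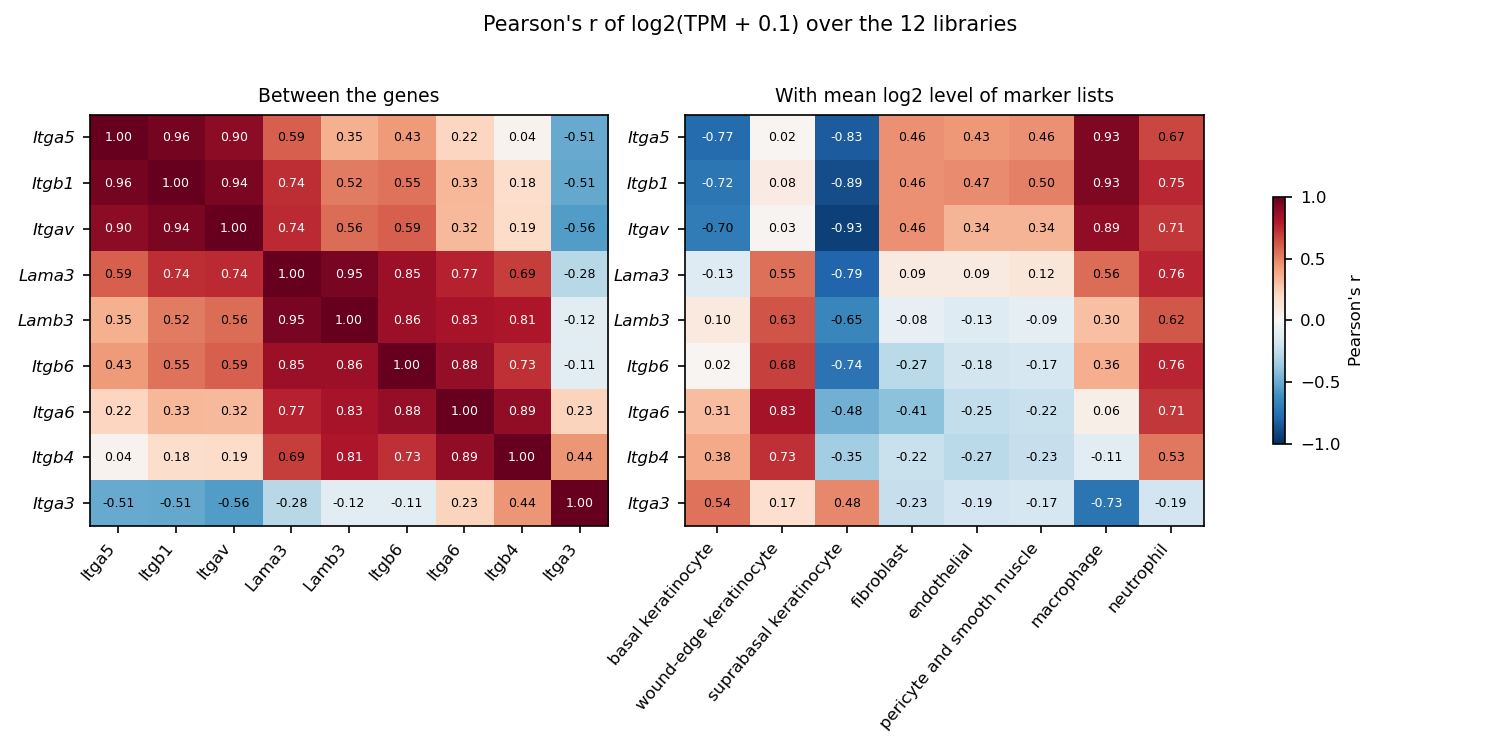
Pearson's r of log2(TPM + 0.1) over the 12 libraries between the 9 genes, and with the mean log2 level of marker lists, on a colour scale from negative to positive. Itga5, Itgb1 and Itgav form a block (0.90 to 0.96) that follows the macrophage markers, and Lama3 and Lamb3 form another (0.95).

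The genes most like each of the 9 over the 12 libraries were sought by Pearson's r among 16169 genes whose mean was 1 TPM or more. Itga5 was most like Ppp1r18 (0.98), Ceacam1 (0.97) and Ube2j1 (0.97). Itgb1 was most like Msn (0.98), Lyn (0.98) and Heatr5a (0.98), where Msn encodes moesin, a linker of actin to the membrane, and Lyn a kinase of blood cells. Among the 3 genes most like Itgav were Rock1 (0.975) and Dapk1 (0.97), where Rock1 encodes a kinase that acts on the actin cytoskeleton. Among the 3 most like Lama3 were Jag1 (0.96), which encodes a Notch ligand, and Pcyt1b (0.96), and among those most like Lamb3 were Lama3 (0.95) and Cfl2 (0.94). Itgb4 was most like Cttn (0.99), which encodes the actin regulator cortactin, followed by H3c3 (0.96) and Artn (0.95). Itga6 was most like Igsf3 (0.955), Emc3 (0.95) and Nat8l (0.95). Itgb6 was most like Sdhaf2 (0.96), Shisa7 (0.95) and Ctnna1 (0.94), where Ctnna1 encodes alpha-catenin of cell junctions. Itga3 was most like Rrn3 (0.94), Psmd3 (0.92) and Usp10 (0.92). These are the highest of many values over 12 points and were not tested.

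Genes that work with these integrins were described in 5 lists. Of 13 adaptors that link integrins to actin, 11 had an unadjusted p under 0.05 and a lower level in CAP-treated wounds at day 6, against 12.5% of all genes, and 0 passed the threshold. Their median log2 difference was -0.51 beside -0.12 for all genes. Fermt2, the integrin activator kindlin-2, was lower by 0.91, and Tln2, a talin, by 0.62 (adjusted p = 0.212 for both, limma). Parva, parvin alpha, differed by -0.58 and Actn1, an alpha-actinin, by -0.565. The exceptions, named after their values were seen, were the epithelial kindlin Fermt1 at -0.00 and Actn4 at 0.11. The count of 11 was 9 without CAP replicate 2, 4 without sham replicate 1 and 7 without sham replicate 2.

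Of 19 other integrin subunits, 18 were tested at day 6. An unadjusted p under 0.05 with a lower level was found for 5 of them, against 12.5% of all genes, and 2 passed the threshold, against 2.34%. They were Itga1, a collagen receptor chain (-1.12), and Itgam, CD11b of myeloid cells (-1.035), the latter named after its value was seen. Itga9 at -0.87, Itga2, another collagen receptor chain, at -0.77 and Itgal, a leukocyte chain, at -0.78 were under 2-fold. Of 10 integrin ligands, 6 had such a p, and 2 passed the threshold, against the same shares of all genes. They were Tnc, tenascin-C (-1.61), and Thbs1, thrombospondin-1 (-1.41). Nid2 at -0.99 and Tgfb3 at -0.75 did not reach 2-fold. The list medians were -0.49 for the subunits and -0.69 for the ligands. Without CAP replicate 2, 0 subunits and 0 ligands passed the threshold, and 4 of each had an unadjusted p under 0.05. Itga1, Itgam, Tnc and Thbs1 also missed the threshold without sham replicate 1 or sham replicate 2, the first 3 of them without sham replicate 3, and Itgam without CAP replicate 1. With an unadjusted p under 0.05 there were 2 subunits without any 1 of the sham replicates and 10 without CAP replicate 3, and 2 ligands without sham replicate 1 or 3 and 3 without sham replicate 2.

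Among 6 hemidesmosome and anchoring genes at day 6, Cd151, a tetraspanin partner of alpha3 and alpha6 integrins, was lower by 0.29 and Col7a1, the anchoring fibril collagen, by 0.42, each with an unadjusted p under 0.05, 2 of 6 against 12.5% of all genes. The count was 0 without CAP replicate 2 or sham replicate 1 and 1 without sham replicate 3. Dst, which encodes the plakin BPAG1, was higher by 0.34 (adjusted p = 0.251, limma), and 1 of 6 had an unadjusted p under 0.05 with a higher level, against 6.67% of all genes. Col17a1, the transmembrane collagen of hemidesmosomes, differed by 0.10 (95% interval -0.28 to 0.49). Of 8 other laminin chains, Lamb1 at -0.625 and Lamc1 at -0.39 had an unadjusted p under 0.05, 2 of 8 against 12.5% of all genes, and the list median was -0.44. The count was 1 without CAP replicate 1 or 2 and 0 without sham replicate 1 or 3. At day 3 the medians of the 5 lists lay between -0.12 and -0.32, beside -0.05 for all genes. At this day 0 genes of any list passed the threshold. An unadjusted p under 0.05 with a lower level was found for 2 of 8 other laminin chains and 2 of 17 other integrin subunits. It was found for 2 of 13 adaptors, 1 of 10 ligands and 0 of 6 hemidesmosome and anchoring genes, where 5.14% of all genes had it. With 1 library left out these counts were, in this order, 1 to 4, 1 to 3, 0 to 3, 1 to 3 and 0.

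**Figure D5:**
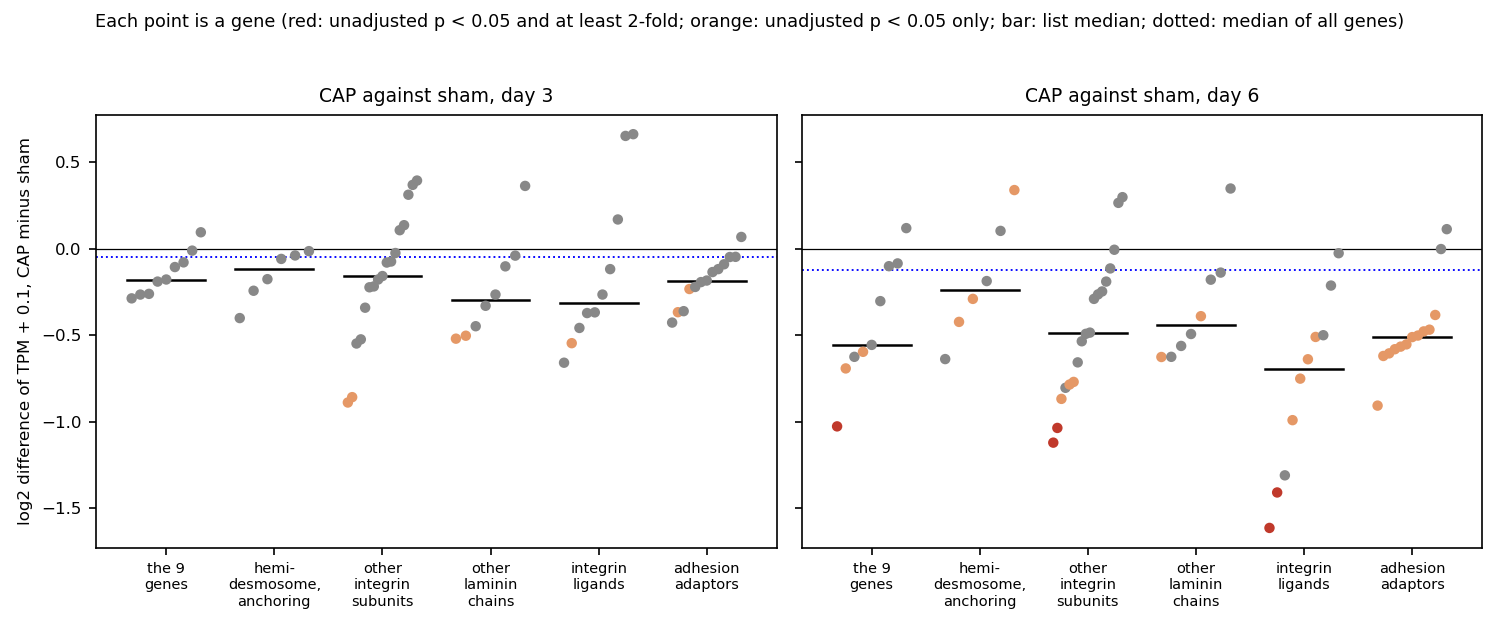
Log2 differences of TPM + 0.1 between CAP-treated and sham wounds at day 3 and at day 6, with 1 point per gene for the 9 genes and the 5 lists, red past the threshold and orange with an unadjusted p under 0.05 only, with bars for list medians and a dotted line for the median of all genes. At day 6 the medians of the 5 lists lie between -0.24 and -0.69, below that of all genes at -0.12.

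Between the days in the sham group, 5 of 10 ligands had an unadjusted p under 0.05 and a higher level at day 6, against 8.05% of all genes, among them Nid1 (0.39), Tgfb1 (0.38) and Tgfb3 (0.54), while Ltbp1, a carrier of latent TGF-beta, was lower (-0.42). The count was 8 without replicate 1 of day 3 and 3 without replicate 2 or 3 of day 3. The list median was 0.50 beside 0.00 for all genes. Of 18 other integrin subunits, Itga1 rose past the threshold (1.15, adjusted p = 0.0652, limma), 1 of 18 against 2.13% of all genes, and was higher by 0.97 without replicate 2 of day 3. Itga7, a laminin receptor chain of muscle, was lower by 0.87 (adjusted p = 0.0146, limma). Itga11, a collagen receptor chain of fibroblasts, and Itgax, CD11c, were higher by 0.79 and 0.56, with an unadjusted p under 0.05. Of 13 adaptors, 0 had an unadjusted p under 0.05 in either direction in the sham group, against 7.91% of all genes lower and 8.05% higher. In CAP-treated wounds the count was also 0, against 5.91% of all genes lower. Without CAP replicate 3 of day 6, 5 adaptors were lower with such a p, where 2975 of all 18051 genes had it in either direction. In CAP-treated wounds the ligands Thbs1 (-1.24) and Spp1, osteopontin (-1.79), passed the threshold with a lower level at day 6, 2 of 10 against 1.52% of all genes. Of the ligands 0 did without CAP replicate 1 or 3 of day 3 or without CAP replicate 1 or 2 of day 6, and 1 without CAP replicate 2 of day 3.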

How the data were processed

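RNA libraries of wound tissue were prepared by the authors (SureSelect XT HS2 mRNA), and reads were trimmed with Trimmomatic 0.36, aligned to mm10 and quantified with StringTie by the authors, who deposited 1 TPM table per library. The TPM values were used as deposited, and the 12 libraries were grouped by treatment and day from the labels. TPM is not a count, so log2(TPM + 0.1) was tested with limma 3.58.1 (trend, R 4.3.3), with Benjamini-Hochberg adjustment over all genes that passed the filter of 0.3 TPM in both groups (in 1 or more of 4 groups for the interaction). Each comparison used its own 2 groups, and the interaction all 12 libraries. The threshold was that of the study's methods, an unadjusted p under 0.05 with a 2-fold difference. Single ratios were tested by the exact permutation test, 2-sided. The script was tested on simulated data. Python 3.11.15 with pandas 2.3.3 was used otherwise. The genes and lists were chosen with earlier results of these data known. All 9 genes are described, and within a list the 4 genes with the smallest unadjusted p are named, with Col17a1, and for likeness the 3 genes of highest r. Some genes that this rule names are not reported here, though list counts and medians include them. Alternatives were a pseudocount of 1 TPM, no filter, median-ratio scaling, quantile normalization, a joint fit, a replicate block, 4 basal markers in place of Krt5 and Krt14, and each library left out in turn. The list counts without CAP replicate 2 of day 6 or CAP replicate 3 of day 3 were added after seeing the data. The hair follicle list held 0 genes above the filter in comparisons of CAP-treated wounds of day 6 with another group.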

Additional observations from a re-analysis of the deposited data

Results flagged for a closer look

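For 4 genes of the ligand and integrin lists, the CAP effect was past the threshold in the interaction term, which tests whether it differed between day 6 and day 3. The terms on the log2 scale were -1.26 for Itga1, -1.43 for Itgam, -1.97 for Spp1 and -2.06 for Thbs1, each with an adjusted p of 0.428 (limma), so none passed after adjustment. For Thbs1 the CAP effect was 0.65 at day 3 and -1.41 at day 6, and for Itgam it was 0.395 and -1.035. These were 2 of 18 subunits and 2 of 10 ligands, against 2.73% of all genes with a negative term. Without CAP replicate 2 of day 6, or without CAP replicate 3 of day 3, 0 subunits and 1 ligand passed. With each of the 12 libraries left out in turn, Thbs1 kept the threshold in 12 of 12 fits, Spp1 in 7 of 12, Itgam in 5 of 12 and Itga1 in 5 of 12. None of the 9 genes was past the threshold in this term.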

How the results depend on the processing

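Over all alternatives, 555 of the recomputed log2 differences of the 9 genes kept their direction and side of the threshold, 24 changed sign, 5 lost the threshold and 1 gained it. Median-ratio scaling moved the median of all genes at day 6 from -0.12 to -0.005, and the split past the threshold from 268 higher and 429 lower to 401 and 286, or 406 and 244 with quantile normalization. In the interaction term the split was 441 positive and 553 negative, and 544 and 483 with quantile normalization. Of the 9, 0 passed lower at day 6 with either scaling. Median-ratio scaling turned the sign for Itga6 at day 3 (0.046) and day 6 (0.019), Itgb4 at day 6 (0.035) and Lamb3 in the interaction (0.009).

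With 1 library left out, the number of the 9 past the threshold with a lower level ranged from 0 to 1 at day 6, between the days of CAP-treated wounds and in the interaction. In the interaction the 1 was Itga5, at -1.15 without CAP replicate 3 of day 6. Signs changed within these ranges at day 3: Itga3 -0.30 to 0.041, Itga6 -0.096 to 0.13, Itgav -0.185 to 0.057, Itgb1 -0.19 to 0.022 and Itgb6 -0.081 to 0.325. They also changed for Itga3 at day 6 (-0.029 to 0.29), Itga3 (-0.23 to 0.089) and Itgav (-0.041 to 0.22) between the days of the sham group, and Itgb4 (-0.048 to 0.315), Lama3 (-0.47 to 0.032) and Lamb3 (-0.23 to 0.11) in the interaction.

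With 4 basal markers in place of Krt5 and Krt14, the ratio was lower without overlap for 9 genes at day 6 and for 5 between the days of CAP-treated wounds, and higher for 0 between the days of the sham group. With a pseudocount of 1 TPM it was lower for 0 between the days of CAP-treated wounds. Leaving out 1 library gave 0 to 4 lower and 0 to 1 higher at day 3, 5 to 9 lower at day 6 (9 without CAP replicate 3), and 1 to 8 lower (8 without CAP replicate 3 of day 6) and 0 to 1 higher between the days of CAP-treated wounds. For the ratios within complexes it gave 0 to 2 lower at day 3, 0 to 1 higher at day 6, 1 to 2 higher and 0 to 1 lower between the days of the sham group, and 0 to 1 higher between those of CAP-treated wounds. Smaller groups overlap less often by construction, and the share of all genes was not computed for these alternatives.

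Deviations from the group means had r of -0.107 to 0.2 between samples of the same replicate number and of -0.188 to 0.17 between those of different number. With 3 libraries a group, this neither shows nor excludes that the numbers pair the libraries. With the replicate block, 1 of the 9 passed lower at day 6, as without it, and 4146 genes had an unadjusted p under 0.05 in place of 3517. Between the days of CAP-treated wounds it was 3194 genes in place of 2107. The cause of the changes above was not tested. TPM carries no depth, 3 libraries a group cannot give a permutation p under 0.1, and no gene had an adjusted p under 0.05 at day 6, where 3517 had an unadjusted p under 0.05 (limma). Without CAP replicate 3 of day 6, 519 higher and 911 lower genes had an adjusted p under 0.05, and without any other single library 0 did.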

Other observations

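Between the days of CAP-treated wounds, 2 of 17 other integrin subunits were past the threshold with a lower level at day 6 and 1 with a higher level, against 1.52% and 1.27% of all genes. Itgb7 was lower at day 6 by 1.57 on the log2 scale, Itgam by 1.64, and Itga11 was higher by 1.31. Each was past the threshold, with adjusted p of 0.295, 0.339 and 0.302 (limma). Itgb7 and Itgam kept the threshold with any 1 library left out, and Itga11, a chain of fibroblasts, missed it without CAP replicate 2 of day 3. Of the other laminin chains, Lama1 was lower (-1.23) and Lama2, a chain of muscle and nerve basement membranes, was higher (0.66), both with an unadjusted p under 0.05. Lama1 was past the threshold, but not without CAP replicate 1 or 2 of day 3 or CAP replicate 2 of day 6. At day 3, Itgb3, the beta chain of platelets and vessels, differed between CAP-treated and sham wounds by -0.89 (adjusted p = 0.624, limma) and Ltbp1 by -0.545 (adjusted p = 0.500, limma), both under 2-fold.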
